A study of Mus musculus with 3 samples.

Results

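Collagen chains were taken as all probe sets of the array whose only annotated gene symbol was a collagen alpha chain gene (Col, a type number, a, a chain number). This rule, which used no measured value, gave 82 probe sets for 42 genes, out of 45101 probe sets on the array and 18193 genes with a probe set of their own. The signals came from 3 pools of whole mouse embryos at 8.5 dpc (days post coitum). The normal array held 6 pooled C57Bl/6J litter mates of mixed sex and carried no methylation mutation. Mutant arrays 1 and 2, described in the series as biological replicates, held 8 and 6 pooled litter mates of mixed sex. These embryos were Dnmt3l-/+ on a C57Bl/6J background and came from Dnmt3l-/- dams mated with wildtype sires. Dnmt3l is a cofactor of DNA methyltransferases in the oocyte, and the labels call the embryos maternal methylation-deficient. The normal group was 1 pool, so no spread among normal pools was measured. Litters were pooled, and whole embryos mix many tissues, so fewer cells of a type and less RNA per cell cannot be told apart.

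Collagens are trimers of alpha chains that wind into a triple helix. Fibrillar chains (types I, II, III, V, XI, XXIV and XXVII) pack into the fibrils of connective tissue and cartilage. Type IV chains form the sheet-like network of basement membranes under epithelia and around vessels, and types XV and XVIII lie at the border of that membrane. In the early embryo, basement membranes made of type IV collagen, laminin and nidogen are laid down before the fibrils of mesenchyme become abundant. The comparison asked whether basement membrane and fibrillar chains differed from the normal array in the same way.

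Some upstream sequences of chains described below are shown first, as background. Whether gene arrangement or these sequences had a part in the signals was not tested. They come from RefSeq (build GRCm38.p6) and are written in the direction of each gene. Col4a1 and Col4a2, the main type IV chains, lie head to head on chromosome 8, with their annotated starts 21 bases apart. The stretch from 50 to 21 bases before the start of Col4a2 (chr8:11312755-11312784, plus strand), which lies inside the Col4a1 gene, and the 250 bases before the starts of Col1a2 (chr6:4505368-4505617, plus strand) and Col3a1 (chr1:45311288-45311537, plus strand) are given. Capitals mark matches to GGGCGG (a GC box), CCAAT or TATAAA on either strand.
Col4a2: cgCCGCCCgaggagctccCCAATttgttgg
Col1a2: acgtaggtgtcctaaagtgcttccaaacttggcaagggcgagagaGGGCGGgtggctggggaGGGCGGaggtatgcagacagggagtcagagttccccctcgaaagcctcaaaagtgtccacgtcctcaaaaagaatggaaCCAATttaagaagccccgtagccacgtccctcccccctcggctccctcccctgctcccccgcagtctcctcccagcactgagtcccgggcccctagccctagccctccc
Col3a1: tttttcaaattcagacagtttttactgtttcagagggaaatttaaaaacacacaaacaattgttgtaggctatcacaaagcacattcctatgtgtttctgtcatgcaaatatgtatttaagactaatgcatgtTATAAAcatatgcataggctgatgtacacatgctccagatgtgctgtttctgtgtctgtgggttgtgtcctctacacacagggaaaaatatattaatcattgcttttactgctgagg
The Col4a2 stretch holds a GC box and a CCAAT match, the Col1a2 window holds 2 GC boxes and 1 CCAAT match, and the Col3a1 window holds 1 TATAAA match and neither of the others. A match is only a match of letters.

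Values are array signals on a linear scale. Log2 ratios compare log2(signal + 31.92) between arrays and understate the change of dim genes. Probe sets in the lower 40% by mean level were not tested. After this filter 46 collagen probe sets of 28 genes remained, and the brightest kept probe set stands for a gene unless another is named. Tests are those of limma across all 27022 kept probe sets, two-sided, with Benjamini-Hochberg adjustment over all of them. Their spread comes from the mutant pair alone (1 residual degree of freedom) and is assumed to hold for the normal pool too. An exact permutation test of 1 against 2 arrays could not go below p = 0.333.

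No collagen gene passed at an adjusted p of 0.05 by limma, 0 higher and 0 lower of 28. Among all kept genes 0.728% were higher and 0.031% lower by that rule. At an unadjusted p under 0.05, limma gave 3 collagen genes higher (Col4a2, Col5a2 and Col1a1) and 0 lower, against a background of 8.01% and 4.24% of kept genes. That count used the brightest probe set of each gene. On dimmer probe sets the unadjusted limma p was 0.0032 for Col4a1 (higher), 0.042 for Col26a1 (lower) and 0.044 for Col4a6 (lower). Of the 28 genes, 5 were higher than normal in both mutant arrays (36.5% of all kept genes were) and 12 were lower in both (39.1% of all). The other 11 differed in sign between the mutant arrays. The median log2 ratio was -0.14 over collagens and -0.02 over all 12913 kept genes. By array, the collagen median was -0.34 in mutant 1 and -0.03 in mutant 2.

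**Figure D1:**
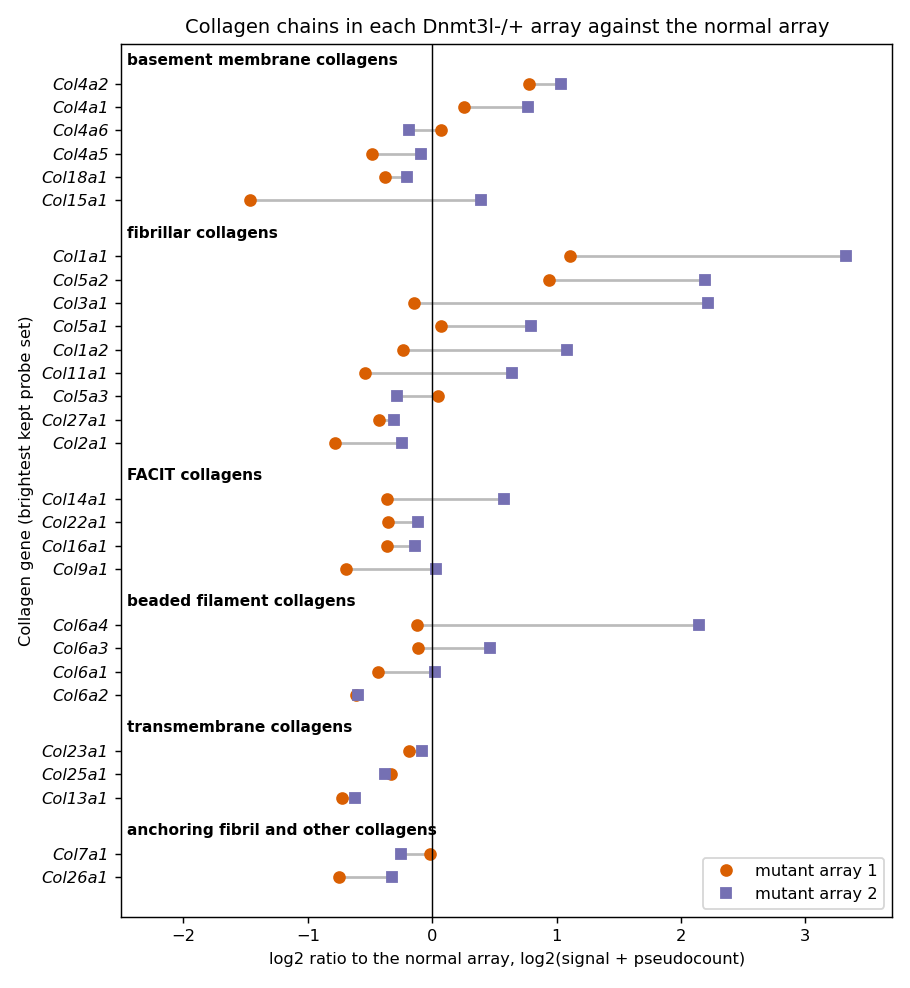
Log2 ratio to the normal array for each of the 28 kept collagen genes, grouped by class, with 1 circle for mutant array 1 and 1 square for mutant array 2. Col4a1 and Col4a2 lie above 0 on both arrays, whereas Col3a1 is at -0.14 on mutant array 1 and 2.22 on mutant array 2.

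Among basement membrane chains, the ubiquitous type IV pair Col4a1 and Col4a2 was higher on both mutant arrays, and the other kept members were not on their brightest probe sets. Col4a2 had a signal of 1538 in the normal pool, 2661 in mutant 1 and 3180 in mutant 2. Both mutant values lay above the normal one and 0.25 apart on the log2 scale, while the log2 ratio was 0.91 (SE 0.21, 95% interval 0.38 to 1.43, limma adjusted p = 0.186). Col4a1, which forms trimers with Col4a2, read 5418 against 6462 and 9259 on its brighter probe set. Its log2 ratio there was 0.51 (SE 0.24, limma adjusted p = 0.441). The dimmer Col4a1 probe set read 1069 against 2117 and 2492, with a log2 ratio of 1.08 (SE 0.22, limma adjusted p = 0.139). On all 3 probe sets of the pair both mutant arrays lay above the 1 normal array, as 36.5% of all kept genes did. Mutant 2 was the higher of the mutants on each, and no probe set passed. On the same arrays the median log2 ratio was 3.00 for markers of yolk sac endoderm and 0.16 for those of parietal endoderm, and their part in the Col4a1 and Col4a2 values was not tested.

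Col4a5 and Col4a6 are the X-linked type IV chains, also head to head, with annotated starts 1343 bases apart. Col4a5 read 991 on the normal array against 697 and 931 (log2 ratio -0.29, SE 0.27), and its dimmer probe set read 419 against 505 and 610 (0.38, SE 0.27). The probe sets of Col4a5 thus disagreed in sign. Col4a6 read 427 against 450 and 372 (log2 ratio -0.06, SE 0.28), with the normal value between the mutant values. Its dimmer probe set read 343 against 201 and 174, lower on both mutant arrays, at a log2 ratio of -0.78 (SE 0.30, limma adjusted p = 0.358). Col4a3 and Col4a4, the chains of the mature kidney and lung membranes, had no kept probe set, with signals from 2.37 to 123.

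The border chains did not follow Col4a1 and Col4a2. Col18a1, whose C-terminal fragment is endostatin, read 4381 against 3353 and 3802 on the brighter of its probe sets and 3216 against 2664 and 2508 on the other. Both probe sets were lower on both mutant arrays, with log2 ratios of -0.29 (SE 0.18, 95% interval -0.75 to 0.17) and -0.31 (SE 0.19), and neither passed. Col15a1, a related chain of vessel and muscle basement membranes, read 128 on the normal array, 26.0 on mutant 1 and 178 on mutant 2. Its mutant values lay on either side of the normal one, and the mutant 1 value was below the pseudocount.

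Several fibrillar chains were high on mutant array 2 and less so, or not, on mutant array 1. Col1a1, the main chain of type I collagen, read 343 on the normal array, 775 on mutant 1 and 3729 on mutant 2. Its second probe set read 313, 556 and 1759. Both mutants were above normal, and mutant 2 was far above mutant 1. The log2 ratio was 2.22 (SE 0.85, 95% interval 0.10 to 4.34, limma adjusted p = 0.355), made of 1.11 in mutant 1 and 3.33 in mutant 2. Col1a2, the other chain of type I collagen, read 1464 against 1240 and 3142, with log2 ratios of -0.23 and 1.09. A second kept probe set read 863 against 762 and 1630. On both, mutant 1 lay slightly below normal and mutant 2 above it.

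Col3a1, the chain of the type III fibrils of soft tissue and vessel walls, read 1544 on the normal array, 1395 on mutant 1 and 7288 on mutant 2. The dimmer Col3a1 probe set read 136, 176 and 706. Mutant 1 was near the normal array on both, and mutant 2 stood apart. The log2 ratio of the brighter one was 1.04 (SE 0.89, 95% interval -1.19 to 3.26, limma adjusted p = 0.671).

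Type V chains nucleate and limit the width of type I fibrils. Col5a2, which is the next protein-coding gene to Col3a1 on chromosome 1 with a gap of 24625 bases, read 366 against 730 and 1788 and was above normal on both mutant arrays. The log2 ratio of Col5a2 was 1.57 (SE 0.52, 95% interval 0.27 to 2.86, limma adjusted p = 0.296). Its second probe set read 175 against 218 and 696. Col5a1 read 789 against 828 and 1392, and its other kept probe sets read 722 against 736 and 1080 and 165 against 352 and 262. The last of these was the only one of the 3 on which mutant 1 exceeded mutant 2. Col5a3, a chain of restricted distribution, read 214 against 223 and 171.

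On their brightest probe sets, the kept cartilage fibrillar chains were all below normal on mutant 1. On mutant 2 they differed in sign. Col2a1, the type II chain made by notochord and later cartilage, read 1315 against 751 and 1106, with both mutants below normal (log2 ratio -0.51, SE 0.30, limma adjusted p = 0.525). Col11a1, a type XI chain that copolymerizes with type II, read 253 against 164 and 412, and its dimmer probe set read 110 against 58.9 and 178. Col27a1, a long cartilage chain, read 939 against 690 and 751, and its dimmer probe set read 407 against 406 and 411. Col11a2 and Col24a1 had no kept probe set. In the mutants the notochord genes read -0.54 for Shh, a secreted ligand, and 0.35 for Foxa2, a transcription factor, both as log2 ratios that did not pass.

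**Figure D2:**
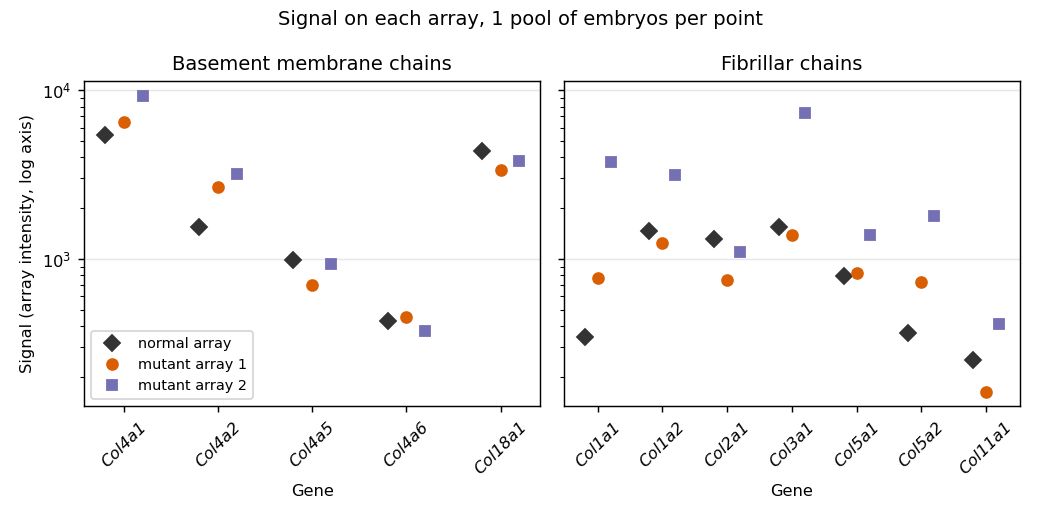
Signal on each array (log axis) for basement membrane chains on the left and fibrillar chains on the right, with 1 point per pool of embryos (diamond normal, circle mutant array 1, square mutant array 2). Col4a2 is above the normal 1538 on both mutant arrays, whereas Col3a1 reads 1544, 1395 and 7288. Heights of different genes cannot be compared, since each probe set has its own brightness.

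Set side by side by class medians, the full basement membrane class did not exceed the fibrillar class. The 6 kept basement membrane genes of 8 centred on a log2 ratio of -0.17 (median; -0.15 for mutant 1, 0.15 for mutant 2), with 2 higher and 2 lower in both arrays. The 9 kept fibrillar genes of 11 centred on 0.43 (-0.14 for mutant 1, 0.79 for mutant 2), with 3 higher and 2 lower in both. The median of basement membrane minus that of fibrillar chains was -0.60. It was -0.01 in mutant 1 and -0.64 in mutant 2, so the difference between the classes rested on mutant 2. With the 4 kept type IV chains alone, the basement membrane median was 0.23 and the difference -0.20. By array, the type IV median was 0.16 in mutant 1, above the fibrillar -0.14, and 0.34 in mutant 2, below the fibrillar 0.79. With no filter, over all 8 and 11 genes, the fibrillar median was 0.051 and the difference -0.26. The size of the difference thus depended on these choices, as did the order of the classes in mutant 1. No test was made over genes, since genes of a class are not replicates.

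Some collagens, mostly fibrillar ones, differed widely between the mutant pools. Of the 28 kept collagen genes, 24 read higher in mutant 2 than in mutant 1 and 4 read lower (Col5a3, Col4a6, Col7a1 and Col25a1), while 54.7% of all kept genes read higher. Past 2-fold on log2(signal + 31.92), 7 collagen genes were higher in mutant 2 and 0 in mutant 1. Among all kept genes 1.46% and 0.736% were. Col14a1, at 127 on mutant 1 and 273 on mutant 2, was past 2-fold only without the pseudocount. Each mutant pool is 1 sample here, so this is a description with no test, and it was chosen after the values were seen. The 7 were the fibrillar genes Col1a1, Col1a2, Col3a1, Col5a2 and Col11a1, the basement membrane gene Col15a1 and Col6a4. Ordered by the log2 difference of mutant 2 over mutant 1 among 12913 kept genes, Col3a1 was rank 6 (2.36) and Col1a1 rank 10 (2.22). Col1a2 was rank 66 (1.32), Col5a2 rank 81 (1.26) and Col11a1 rank 100. The other 2 rest on dim readings outside mutant 2, since Col15a1 read 26.0 on mutant 1 and Col6a4 read 57.5 on the normal array and 50.2 on mutant 1. With genes kept by the 40th percentile of the normal array alone, an alternative added after the values were seen, 6 of 28 collagen genes were past 2-fold in mutant 2 (1.62% of all genes so kept), without Col6a4. On that filter 1 was past 2-fold in mutant 1, Col4a3, which read 123 on the normal array against 116 and 17.2. For Col4a1 and Col4a2 the same difference was 0.52 and 0.25. The count of fibrillar genes past 2-fold was 5 of 9 and was also 5 with median centring, quantile normalization, cyclic loess and both other pseudocounts.

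**Figure D3:**
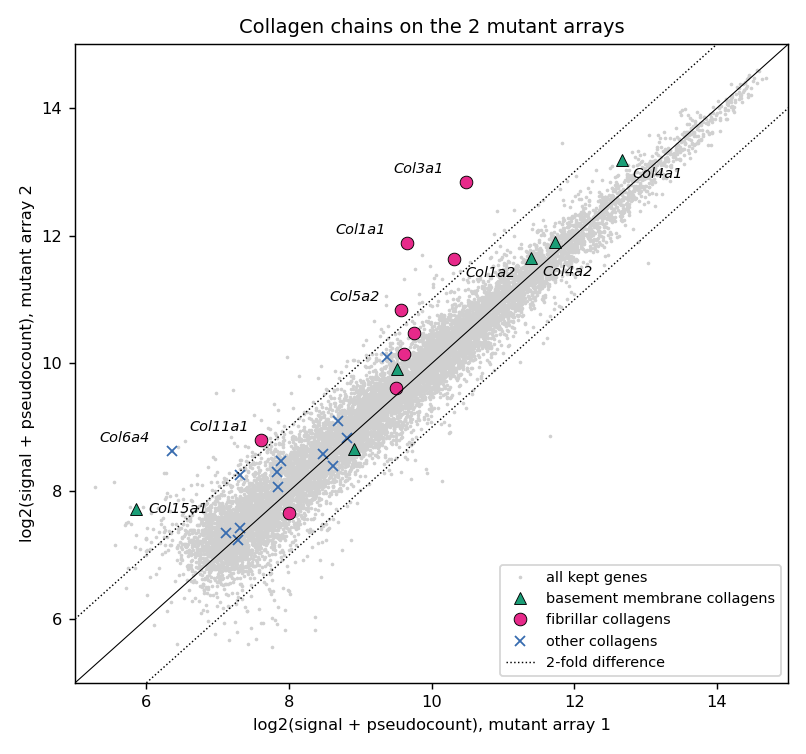
Log2(signal + 31.92) on mutant array 1 against mutant array 2 for all 12913 kept genes (grey) and for collagen chains by class, with dotted lines at a 2-fold difference. The 5 fibrillar genes Col1a1, Col1a2, Col3a1, Col5a2 and Col11a1 lie above the upper dotted line, while Col4a1 and Col4a2 lie between the lines.

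The remaining classes had medians at or below 0, at -0.24 for fibril-associated, -0.02 for beaded filament and -0.36 for transmembrane chains. Fibril-associated chains decorate the surface of fibrils, and 4 of 9 genes were kept. Col9a1, the type IX chain that coats type II fibrils, read 1041 against 631 and 1062, while its dimmer probe set read 348 against 465 and 460. Those probe sets had opposite signs (-0.33 and 0.38). Col14a1 read 173 against 127 and 273, Col16a1 264 against 197 and 236, and Col22a1 145 against 107 and 131 (108 against 96.3 and 76.4 on its dimmer probe set). Type VI chains form beaded filaments close to cells. Col6a2 read 654 against 417 and 422, lower on both mutant arrays, with a log2 ratio of -0.60 (SE 0.25, limma adjusted p = 0.388). Its dimmer probe set read 454 against 104 and 415, also lower on both but with mutant 1 much the lower. Col6a1, its partner and neighbour on chromosome 10, read 277 against 196 and 282, and Col6a3 read 225 against 205 and 323. Col6a4 read 57.5 against 50.2 and 365, and its other probe set, which the filter removed, read 11.6 against 109 and 35.1, so its probe sets put different mutant arrays on top.

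The 3 kept transmembrane chains, which are anchored in the cell membrane, were lower than normal on both mutant arrays on their brightest probe sets and none passed. Col13a1 read 232 against 128 and 140, with the largest log2 ratio of the 3 at -0.67 (SE 0.32, 95% interval -1.46 to 0.12, limma adjusted p = 0.437). Col25a1 read 165 against 124 and 119, and Col23a1 374 against 324 and 351. The other kept Col23a1 probe sets read 264 against 238 and 223, and 135 against 17.3 and 202. On the last of these mutant 2 was above normal (log2 ratio 0.48) and mutant 1 far below it. Col7a1, the chain of the anchoring fibrils of skin, read 367 against 361 and 304. Col26a1 read 659 against 378 and 519 (log2 ratio -0.54), and its dimmer probe set 142 against 48.4 and 62.9 (-0.995, SE 0.38, limma adjusted p = 0.350), lower on both arrays by either probe set. The other 14 genes, measured by 29 probe sets with signals from 2.37 to 123, had no kept probe set and no test. Besides those named above these were Col8a1, Col8a2 and Col10a1 of the short chains, Col9a2, Col9a3, Col12a1, Col19a1 and Col20a1 of the fibril-associated chains, Col6a5 and Col17a1. Among these dim probe sets, Col12a1 read 69.4 against 114 and 112 on one and 72.0 against 78.1 and 75.6 on another, and Col8a1, a chain of vessel and corneal membranes, read 52.9 against 22.6 and 18.6 on its brightest.

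Genes that make, cut, bind or accompany collagen gave 0 calls by limma at an adjusted p of 0.05. Over the 66 kept genes of these 6 lists together, 21 were higher and 25 lower in both mutant arrays. The shares of all kept genes were 36.5% and 39.1%. At an unadjusted p under 0.05, 6 of the 66 were higher and 2 lower, near the 8.01% and 4.24% of all kept genes. Of 15 kept modifying enzymes and chaperones, 8 were higher in both arrays and 3 lower (median log2 ratio 0.12). Crtap, a subunit of the prolyl 3-hydroxylase complex, read 1341 against 2305 and 2499 (log2 ratio 0.82, SE 0.20, limma adjusted p = 0.195), and P4ha1, a catalytic subunit of prolyl 4-hydroxylase, had 0.55. Among those lower on both arrays were P3h3 (-0.41) and the cyclophilin Ppib (-0.19). Neither Crtap nor P4ha1 showed the gap between the mutant pools, with a log2 difference (mutant 2 over mutant 1) of 0.12 each. Their naming rule favours genes on which the mutant arrays read alike, so they do not stand for the lists. The median of that difference was 0.12 for modifying enzymes, 0.19 for processing and 0.36 for receptors. It was 0.15 for breakdown, 0.17 for other basement membrane and 0.50 for other fibrillar proteins, against 0.03 for all kept genes. With the pseudocount, 3 of the 66 (Loxl1, Lum and Postn) were at least 2-fold higher in mutant 2 and 0 in mutant 1.

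Of 9 kept genes for processing and crosslinking of procollagen, 0 were higher in both arrays and 6 were lower (median -0.22). Here and for the next 2 lists, the shares of all kept genes were 36.5% higher and 39.1% lower. Pcolce2, an enhancer of the C-propeptide protease, read 279 against 114 and 72.9 (log2 ratio -1.33, SE 0.37, limma adjusted p = 0.237), and the protease Bmp1 itself had -0.40. Of 6 kept collagen receptors, 2 were lower in both arrays, Itga10 (-0.25) and Itgb1 (-0.15), and 4 differed in sign. Of 6 kept genes for collagen breakdown, which include proteases and their inhibitors, 4 were lower and 1 higher in both arrays. Mmp2, a gelatinase that cuts type IV and denatured collagen, read 2762 against 1372 and 1869 (log2 ratio -0.77, SE 0.25, limma adjusted p = 0.293). Mmp9, the other gelatinase, had -0.40, and the inhibitor Timp3 had 0.24.

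Other basement membrane proteins went both ways, and nidogen was the highest of them. Of 16 kept genes, 8 were higher and 5 lower in both arrays (median log2 ratio 0.11), against 36.5% and 39.1% of all kept genes. Nid1, nidogen, which links the laminin and type IV networks, read 770 against 1918 and 2072 (log2 ratio 1.34, SE 0.21, limma adjusted p = 0.0885). Sparc, a collagen-binding glycoprotein, read 2628 against 4263 and 6093 (0.95, SE 0.25, limma adjusted p = 0.221). Both lay above normal on both mutant arrays, as Col4a1 and Col4a2 did. The perlecan gene Hspg2 (-0.19) and Frem1 (-0.66) were lower on both.

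Of 14 kept genes for other matrix proteins of fibrillar tissue, 4 were higher and 5 lower in both arrays (median -0.08). Of all kept genes 36.5% were higher and 39.1% lower in both. Postn, periostin, which binds type I collagen, read 394 on the normal array, 1039 on mutant 1 and 2626 on mutant 2. Lum, lumican, a proteoglycan on type I and III fibrils, read 444, 749 and 2530. Both were lowest on the normal array and highest on mutant 2, as Col1a1 and Col5a2 were, and neither passed (limma adjusted p = 0.221 and 0.393). On log2(signal + 31.92), these 2 were the only ones of the 14 at least 2-fold higher in mutant 2 than in mutant 1. Among all kept genes 1.46% were. On signals without the pseudocount, others of the 14 also passed 2-fold. Fbn2, a microfibril protein (-0.30), and Mfap2 (-0.46) were lower on both mutant arrays.

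**Figure D4:**
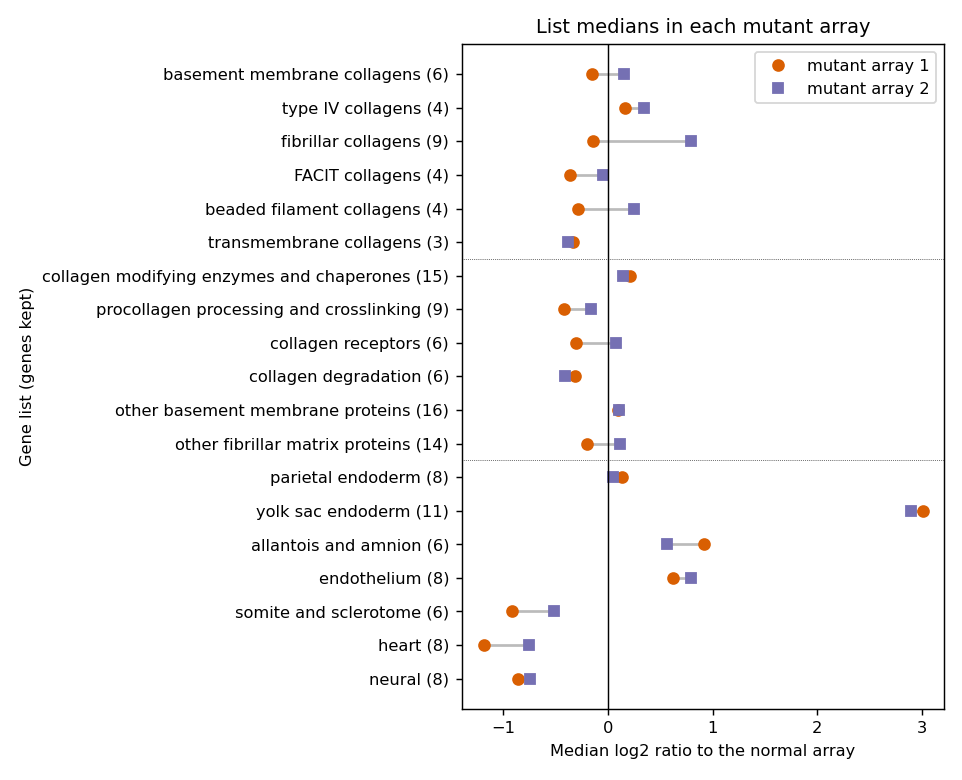
Median log2 ratio to the normal array on mutant array 1 (circle) and mutant array 2 (square) for collagen classes, related gene lists and marker lists, with the number of kept genes in parentheses. Fibrillar collagens are at -0.14 and 0.79, and yolk sac endoderm markers at 3.01 and 2.89.

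Marker genes of tissues moved on the same arrays, and their part in the collagen values was not tested. Counts are of genes higher, or lower, on both mutant arrays, where 36.5% of all kept genes were higher and 39.1% lower. Summed signals, here and below, weigh bright probe sets most. By limma at an adjusted p of 0.05, 0.728% of all kept genes were higher and 0.031% lower. Yolk sac endoderm markers were higher in 11 of 11 kept genes, with summed signals of 19082 (normal), 101900 (mutant 1) and 107790 (mutant 2), and 10 of them rose by limma at an adjusted p of 0.05. These were Afp, Amn, Apoa1, Apoa4, Apob, Apom, Cubn, Fgb, Rbp4 and Ttr, with Apob, a lipoprotein gene, at a log2 ratio of 3.85. Parietal endoderm, which secretes a thick type IV membrane, had 4 of 8 kept markers higher and 3 lower, with summed signals of 4002, 4238 and 4303. Among them Krt19, a keratin, had 0.81 and Fst, an activin-binding protein, had -0.65. Endothelial markers were higher in 6 of 8 (summed signals 2716, 3637 and 4906). Allantois and amnion markers were higher in 5 of 6 (5746, 10992 and 8884), with the transcription factor Hand1 at 1.35. Decidual markers, of maternal tissue, were lower in 5 of 6 (2540, 1056 and 1106), and Prl8a2 fell from 1376 to 101 ± 14.3 (SD, n = 2, limma adjusted p = 0.0212).

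Heart, neural and somite markers had signal on every array and most read lower in the mutants, though none passed limma. Of all kept genes, 39.1% were lower and 36.5% higher on both mutant arrays, and 0.728% passed limma as higher. Heart markers were lower in 8 of 8 kept genes (summed signals 32501, 16879 and 23517), neural markers in 8 of 8 (7404, 3346 and 4828) and somite and sclerotome markers in 5 of 6 (4158, 2062 and 2598). Erythroid markers were higher in 7 of 7 (33758, 67573 and 69011), with a median log2 ratio of 2.14. The bright globins made up most of those sums. Of these markers 2 passed limma, the embryonic globin Hba-x (log2 ratio 1.37, adjusted p = 0.0269) and the anion exchanger Slc4a1 (2.43, adjusted p = 0.0498). Both kept trophoblast markers were higher (530, 2145 and 2285), and the homeobox gene Esx1 passed (2.25, limma adjusted p = 0.0498). No marker was at 0 on any array. In the order normal, mutant 1, mutant 2, median signals were 144, 130 and 140, and the ratio of the 3-prime to the 5-prime Actb control probe set was 1.63, 1.24 and 1.43. That ratio for Gapdh was 0.930, 0.859 and 1.10, highest on mutant 2, and its part in the mutant 2 values was not tested. Between the mutant pools, the median log2 difference of mutant 2 over mutant 1 was 1.18 for the fibrillar chains. Among marker lists it was 0.60 for the 2 kept notochord markers, 0.47 for neural, 0.34 for heart and 0.20 for endothelium. It was -0.35 for allantois and amnion. No list of fibroblast markers was included, and the part of tissue makeup in the fibrillar difference was not tested.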

How the data were processed

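The authors' deposited values are array intensity values, 1 per probe set and array. GCOS and MAS5 are named, without versions or settings, in the submitters' processing notes. Per the labels, RNA was extracted with Trizol and labelled with biotin. The arrays share 1 scale, with a mean of 500.0 once the outer 2% of values on each side are dropped. Such scaling lets a change in tissue makeup shift other genes the opposite way. The 64 control probe sets were not tested. Symbols are those of the platform annotation, and only the 34945 probe sets with 1 symbol name a gene. The pseudocount 31.92 is the median of the arrays' 20th percentiles. Limma (version 3.58.1, R 4.3.3) was fitted with lmFit and eBayes with a variance trend, giving 4.52 prior degrees of freedom. In 10 simulated data sets of this comparison over 27022 probe sets, limma recovered 25.5%, 89.7% and 100% of probe sets changed by 1, 2 and 3 on the log2 scale. False calls averaged 9.4 per data set. Probe sets of like level shared 1 noise level there, and the changed ones were drawn from the brighter probe sets. The shares thus need not hold for genes whose mutant pools differ widely, such as Col1a1, or for dim genes. The members and lists were chosen with earlier results of these data known. Genes outside the collagens could be named if they passed limma or were among the 2 per list and direction with the largest change in the less changed mutant array. Alternatives were other pseudocounts, filters, scalings, variance models, probe set summaries and lists, and leaving out each mutant array.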

Additional observations from a re-analysis of the deposited data

How the results depend on the processing

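No collagen gene passed limma at an adjusted p of 0.05 under any of the 9 alternatives with a test, which held 28 collagen genes except for 21 with the stricter filter and 42 with none. At an unadjusted p under 0.05 these gave 2 to 4 genes higher and 0 to 2 lower. Of 245 single gene values, 242 kept their sign and 3 turned: Col4a6 to 0.019 with median centring, and Col4a5 to 0.046 and Col9a1 to 0.025 with the mean of probe sets. The basement membrane median was 0.23 with type IV chains alone. Leaving out a mutant array gave -0.15 to 0.15 for that median, -0.14 to 0.79 for the fibrillar median and -0.64 to -0.012 for their difference. With no filter the fibrillar median was 0.051 and the difference -0.26, and with type IV chains alone the difference was -0.20. The basement membrane median was -0.056 with the stricter filter and -0.097 with median centring. The other alternatives moved none of the 3 values by over 1.5 times, and the moves under settings that keep both mutant arrays were within 1 SD of those arrays, which is wide with 2 arrays, except for the type IV median. No paired analysis was possible because the normal group has 1 array without a replicate number. Depth cannot be stated for arrays, and the 3 arrays limit the precision. Recovery of a 2-fold change was 25.5% in simulated data for this comparison, where probe sets of like level shared 1 noise level.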

Other observations

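Promoter windows (250 bases before to 50 after the start, RefSeq, GRCm38.p6) were held for 33 of the 42 collagen genes, in 36 windows. GGGCGG, searched on both strands, was in 61.1% of the collagen windows and in 35.7% of all 32851 windows. CCAAT was in 36.1% and 37.4%, and TATAAA in 13.9% and 13.6%. No window was held for the fibrillar genes Col1a1, Col2a1 and Col5a2. By class, among genes with a window, GGGCGG was in 5 of 7 basement membrane genes and 6 of 8 fibrillar genes, and TATAAA in 0 of 7 and 2 of 8. These shares are descriptions of letters, with no test, and the motifs were chosen after the signals were seen.

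On their brightest probe sets, neighbouring collagen genes on the GRCm38.p6 map did not always read alike on these arrays. Col4a1 and Col4a2, head to head, were both higher than normal on both mutant arrays (log2 ratios 0.51 and 0.91). Col3a1 and Col5a2 were both higher on mutant 2, whereas on mutant 1 Col3a1 was at -0.14 and Col5a2 at 0.94. On their dimmer kept probe sets mutant 1 was at 0.30 for Col3a1 and 0.27 for Col5a2, so this contrast depended on the probe set. Col6a1 and Col6a2 read -0.21 and -0.60.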
